A study of Homo sapiens with 6 samples.

Results

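The 10 genes described here are the NOTCH receptors NOTCH1 and NOTCH3, the DNA-binding factor RBPJ through which they act, and 7 genes known as direct NOTCH targets in T-cell leukaemia (HES1, HES4, DTX1, NRARP, PTCRA, CR2 and SHQ1). They were chosen by name from the 63677 genes of the count table, with earlier results of these data known. Their counts beside the shares of all genes are therefore descriptive. Each symbol had 1 Ensembl row, and 9 of the 10 passed the filter on low counts, while NRARP did not. RNA was sequenced from RPMI-8402, an established T-cell acute lymphoblastic leukaemia (T-ALL) line carrying Cas9 and grown in serum free of tetracycline. Control cells received DMSO (genotype label: control). The other cells received doxycycline (DOX; genotype label: MYCN_knockout), which induces guides to both MYC and MYCN, and both groups were harvested at 72 hours. There were 3 libraries per group, called here DMSO 11, 23 and 35 and DOX 12, 24 and 36 after their count columns. The labels do not say whether the cells were a clone or a mixed population, or whether the libraries of a group were separate cultures, so the spread behind each p-value may be technical. Doxycycline without guides was not analysed here, so an effect of the drug and an effect of the guides cannot be told apart.

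NOTCH receptors are cell surface proteins that are cut when a ligand binds, or constantly when the receptor carries activating mutations, as is common in T-ALL. The freed intracellular part enters the nucleus, joins RBPJ and a Mastermind coactivator on DNA, and switches on target genes. In developing T cells this signal drives commitment to the lineage, and MYC is among its best known targets in leukaemia.

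The promoters of the 2 HES genes show the DNA side of this pathway, so they are printed first. They come from RefSeq (GRCh38.p14, which is not the hg19 build named for the counts), run 5′ to 3′ on the gene's strand, and cover 250 bases before to 50 bases after the start site. HES1 lies at chr3:194135898-194136197 on the + strand and HES4 at chr1:1000048-1000347 on the - strand. Capitals mark matches to the RBPJ core TGGGAA or, on the opposite strand, to the related GTGTGAA, which reads TTCACAC here.
HES1: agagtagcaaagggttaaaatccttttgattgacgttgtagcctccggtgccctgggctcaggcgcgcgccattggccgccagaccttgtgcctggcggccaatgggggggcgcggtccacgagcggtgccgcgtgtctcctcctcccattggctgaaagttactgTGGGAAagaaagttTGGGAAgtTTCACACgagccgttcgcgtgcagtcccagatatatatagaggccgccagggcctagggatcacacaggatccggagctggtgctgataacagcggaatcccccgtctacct
HES4: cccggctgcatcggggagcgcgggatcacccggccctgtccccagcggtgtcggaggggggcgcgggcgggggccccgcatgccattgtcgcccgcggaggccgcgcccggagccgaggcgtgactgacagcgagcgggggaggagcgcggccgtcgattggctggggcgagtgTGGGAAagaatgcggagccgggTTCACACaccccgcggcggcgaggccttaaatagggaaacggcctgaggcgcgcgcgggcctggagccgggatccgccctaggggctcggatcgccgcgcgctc
In both promoters a TGGGAA on the gene's strand is followed, 16 bases further on, by TTCACAC. The HES1 pair runs from base -84 to base -56 and the HES4 pair from -76 to -48, counted from the start site. HES1 holds another TGGGAA between them, at -70 to -65. TGGGAA on either strand was present in 24% of the 35116 promoter windows in the table, and GTGTGAA on either strand in 3%. A TGGGAA followed within 40 bases by TTCACAC was found in 19 windows, and with exactly 16 bases between in 2, those of HES1 and HES4. This arrangement was chosen after the sequences were seen, and a match of letters is not a measured binding site.

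The tests read as follows. Levels are given as CPM, the usual depth-scaled count, computed from the library total and its TMM factor, and log2 fold changes are DOX over DMSO from edgeR with their standard errors (SE). Totals ran from 28602145 to 29204148 counts per library, and the members other than NRARP and PTCRA held at least 623 counts in each library. DMSO 11 stood apart from the other controls: over the 9311 genes averaging 10 CPM or more, its root mean square log2 distance was 0.41 to 0.43 to DMSO 23 and 35, against 0.18 to 0.21 to the DOX libraries. The fold changes of the members and the counts of calls are therefore also given without it. That choice was made after these distances were seen, and it removes the control nearest the DOX libraries. The p-values and calls without DMSO 11 are therefore descriptive and add no separate support. Over all genes, edgeR's quasi-likelihood test called 0.0313% at an adjusted p of 0.05 (5 of 15949), and 49.4% without DMSO 11. DESeq2 called 9.81% over all 6 libraries, 6.44% as lower in DOX. T lymphoid markers summed to 2065 to 2222 CPM in DMSO and 2018 to 2079 in DOX, with the CD3 genes, CD7, CD5 and LCK all tested, while CD1A and LMO2 did not pass the low count filter. Of the 10 tested, 2 had every DOX library below every DMSO library, beside 15.6% of all genes, and 0 had the reverse. LMO1 was 1 of these, at -0.36 ± 0.07 (adjusted p = 0.0891 by edgeR, 0.00245 by DESeq2). CD2 overlapped, at 19.6, 5.35 and 6.96 CPM in DMSO 11, 23 and 35 against 15.5, 14.7 and 13.5 CPM in DOX. Without DMSO 11 CD2 was at 1.24 ± 0.12. The targeted MYCN was lower in every DOX library (46.2 to 53.7 CPM) than in every DMSO library (76.8 to 109.5 CPM), as were 15.6% of all genes. Its log2 fold change was -0.87 ± 0.13 (adjusted p = 0.0726 by edgeR, 1.08e-05 by DESeq2). MYC overlapped between groups at -0.30 ± 0.12 (adjusted p = 0.176 by edgeR, 0.159 by DESeq2). With all 6 libraries neither gene passed the main edgeR test. MYC was at -0.20 without DMSO 11 and at -0.42 without DMSO 23, and neither of these passed edgeR's test.

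Across the 9 tested genes, 6 stood lower in DOX and 3 did not separate. HES1, HES4, DTX1, PTCRA, CR2 and SHQ1, all of them targets, had every DOX library below every DMSO library, as had 15.6% of all genes tested, and 0 had every DOX library above, as had 14.6%. In either direction 30.2% of all genes separated. NOTCH1, NOTCH3 and RBPJ overlapped between groups. By the main edgeR test 0 of the 9 passed in either direction, where 0.0188% of all genes were called lower. At an unadjusted p under 0.05 edgeR counted 6 as lower and 0 as higher, where 14.8% of all genes were counted as lower and 11.2% as higher. DESeq2 called the same 6 as lower and 0 as higher, where 6.44% and 3.37% of all genes were so called. EdgeR without DMSO 11 also called these 6 as lower and 0 as higher, where 25.7% and 23.7% of all genes were so called. Limma voom called 0, with the lowest adjusted p at 0.0764 for CR2. The median log2 fold change was -0.53 over the 9 genes and -0.0031 over all genes tested. In bulk RNA, fewer cells with a transcript and less of it per cell cannot be told apart.

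**Figure D1:**
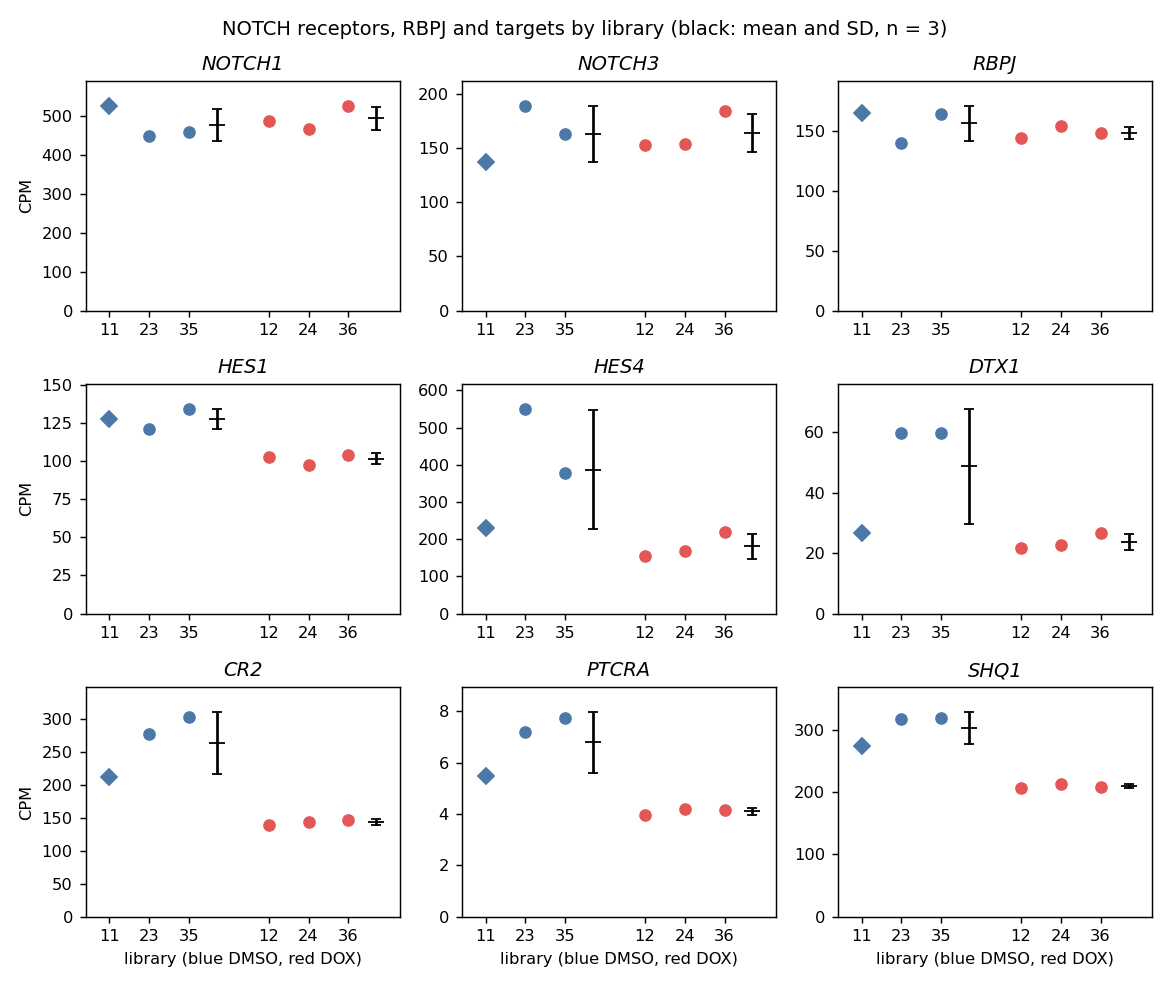
CPM of the 9 tested genes in each library; diamonds are DMSO 11, blue points DMSO 23 and 35, red points DOX, and black bars the mean with SD (n = 3). The 6 targets in the lower rows have all DOX points below all DMSO points (26.61 below 26.65 CPM in DTX1), while the receptors and RBPJ overlap.

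The receptors, the first step of the pathway, did not separate between groups. NOTCH1 (ENSG00000148400, chromosome 9), the receptor most often mutated in T-ALL, stood at 524, 447 and 458 CPM in DMSO 11, 23 and 35 and at 486, 466 and 525 CPM in DOX 12, 24 and 36. The highest value was in a DOX library and the second highest in DMSO 11, and the groups overlapped. The log2 fold change was 0.05 ± 0.10, with a 95% interval of -0.18 to 0.28 and an edgeR adjusted p of 0.781, and it was 0.12 ± 0.07 without DMSO 11. NOTCH3 (ENSG00000074181, chromosome 19), a second receptor that is itself induced by NOTCH1 signals in T cells, stood at 137, 189 and 163 CPM in DMSO, against 153, 154 and 184 CPM in DOX. DMSO 11 was the lowest library and DMSO 23 the highest, so both extremes were controls. Its log2 fold change was 0.0028 ± 0.13 (95% interval -0.30 to 0.30, edgeR adjusted p = 0.991). Its sign depended on single libraries, with -0.11 without DMSO 11 and -0.09 without DOX 36. Thus NOTCH3 had no stable direction across the fits, unlike the 6 separated targets.

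RBPJ (ENSG00000168214, chromosome 4), which holds repressors on target genes until the cut receptor arrives, stood at 165, 140 and 165 CPM in DMSO, against 144, 154 and 148 CPM in DOX. All DOX values lay within the DMSO range. The log2 fold change was -0.07 ± 0.09, with a 95% interval of -0.29 to 0.14 and an edgeR adjusted p of 0.620, and it was -0.03 ± 0.07 without DMSO 11. RBPJ has processed pseudogenes of near-identical sequence, 4 of which had rows in the table and held 0 counts in every library, so its count is uncertain to the extent that shared reads were dropped.

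The HES genes encode basic helix-loop-helix repressors that carry the NOTCH signal on. HES1 (ENSG00000114315, chromosome 3) stood at 127, 121 and 134 CPM in DMSO, against 103, 97.2 and 104 CPM in DOX. The control libraries lay close together here, DMSO 11 included. HES1 differed by -20.4% in DOX by edgeR, a log2 fold change of -0.33 ± 0.08, with an adjusted p of 0.0915 by edgeR, 0.0162 by DESeq2 and 0.000346 by edgeR without DMSO 11 (-0.33 ± 0.07). The exact two-sided permutation test gave p = 0.1, the smallest that 3 libraries against 3 allow, for HES1 and for each of the 5 other separated targets. HES4 (ENSG00000188290, chromosome 1), a relative absent from mice, stood at 231, 550 and 378 CPM in DMSO, against 154, 169 and 219.8 CPM in DOX. DMSO 23 was the highest library and DMSO 11 lay close above DOX 36. The log2 fold change was -1.10 ± 0.28, with an adjusted p of 0.0957 by edgeR, 0.00290 by DESeq2 and 0.00743 by edgeR without DMSO 11 (-1.36 ± 0.23).

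The 2 HES genes, which share the 16-base arrangement printed above, did not vary alike among controls. On the log2 scale of CPM, HES4 exceeded HES1 by 0.86, 2.19 and 1.49 in DMSO 11, 23 and 35 and by 0.59, 0.79 and 1.08 in DOX 12, 24 and 36. DMSO 11 fell inside the DOX range. DMSO 23 and 35 lay above it. The mean was 1.51 ± 0.66 in DMSO and 0.82 ± 0.25 in DOX (SD, n = 3). The two-sided exact permutation p was 0.2. With 3 libraries against 3 that test cannot give less than 0.1, so it cannot decide whether the folds of HES4 and HES1 differ. The DMSO mean was 1.84 without DMSO 11. The ratio was chosen after the values were seen.

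DTX1 and NRARP are NOTCH targets that act back on the pathway. DTX1 (ENSG00000135144, chromosome 12), the Deltex ubiquitin ligase that binds the receptor's intracellular part, stood at 26.65, 59.7 and 59.8 CPM in DMSO, against 21.6, 22.8 and 26.61 CPM in DOX. DMSO 11 and DOX 36 were nearly equal, and the separation of the groups rested on that small gap. The log2 fold change was -1.04 ± 0.28, with an adjusted p of 0.0984 by edgeR, 0.00508 by DESeq2 and 2.55e-10 by edgeR without DMSO 11 (-1.34 ± 0.08). NRARP (ENSG00000198435, chromosome 9), an ankyrin repeat protein that promotes loss of the cut receptor, held 4, 8 and 1 counts in DMSO and 2, 0 and 3 counts in DOX. These counts overlap and are too few for a fold change. NRARP is widely used as a readout of NOTCH activity, and with so few counts it gave none here.

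CR2, PTCRA and SHQ1 are targets with functions outside the pathway. CR2 (ENSG00000117322, chromosome 1), the complement receptor CD21 known mainly from mature B cells, stood at 212, 277 and 304 CPM in DMSO, against 139, 144 and 147 CPM in DOX. The DOX libraries were tightly grouped and all controls lay well above them. CR2 differed by -45.6%, a log2 fold change of -0.88 ± 0.13, with an adjusted p of 0.0666 by edgeR, 2.02e-06 by DESeq2 and 4.20e-10 by edgeR without DMSO 11 (-1.01 ± 0.06). It had the lowest edgeR and DESeq2 adjusted p of the 9 tested genes. The 10 B lymphoid markers summed to only 5.86 to 7.69 CPM in DMSO and 6.55 to 8.45 CPM in DOX, with MS4A1 and FCER2 at 0 counts and 5 of the 10 tested, so the CR2 transcript was abundant with B cell genes near 0. Its neighbour and relative CR1 held 3 counts over all libraries.

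The promoter of CR2 is shown because it was the single one of the 9 members with a window in the RefSeq table to hold CACGTG, the E-box that MYC with its partner MAX binds. It lies at chr1:207454078-207454377 on the + strand, with the E-box in capitals at -45 to -40.
CR2: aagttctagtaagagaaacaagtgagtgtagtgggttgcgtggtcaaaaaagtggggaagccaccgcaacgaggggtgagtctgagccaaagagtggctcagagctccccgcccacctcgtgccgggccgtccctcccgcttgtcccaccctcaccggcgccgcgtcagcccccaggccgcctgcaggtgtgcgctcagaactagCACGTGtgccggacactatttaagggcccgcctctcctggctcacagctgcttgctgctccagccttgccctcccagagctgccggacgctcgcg
An E-box was present in 7.26% of all windows and in 8.77% of the 27305 genes with a window, so 1 of 9 members is near the share of all genes. Binding of MYC to the CR2 promoter was not tested. CACGTG reads the same on both strands. Of the 9 members with a window, TGGGAA was found in 3, beside 28.1% of all genes with a window. These were HES1, HES4 and RBPJ, for RBPJ in 1 of its 5 windows. A missing match says only that these letters are not in the window.

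PTCRA (ENSG00000171611, chromosome 6) encodes the pre-T-cell receptor alpha chain, which pairs with the beta chain in immature thymocytes. It was the least abundant tested member, at 5.47, 7.18 and 7.74 CPM in DMSO, against 3.95, 4.20 and 4.17 CPM in DOX, from 114 to 229 counts per library. DMSO 11 lay between the other controls and DOX. The log2 fold change was -0.73 ± 0.16, with an adjusted p of 0.0892 by edgeR, 0.00876 by DESeq2 and 1.38e-05 by edgeR without DMSO 11 (-0.86 ± 0.13). SHQ1 (ENSG00000144736, chromosome 3), an assembly factor for the H/ACA ribonucleoproteins of ribosome and telomerase biology, stood at 274, 316 and 319 CPM in DMSO, against 207, 213 and 209 CPM in DOX. The lowest control lay clearly above the highest DOX library. SHQ1 differed by -30.8%, a log2 fold change of -0.53 ± 0.09, with an adjusted p of 0.0770 by edgeR, 5.94e-05 by DESeq2 and 2.00e-07 by edgeR without DMSO 11 (-0.60 ± 0.06).

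**Figure D2:**
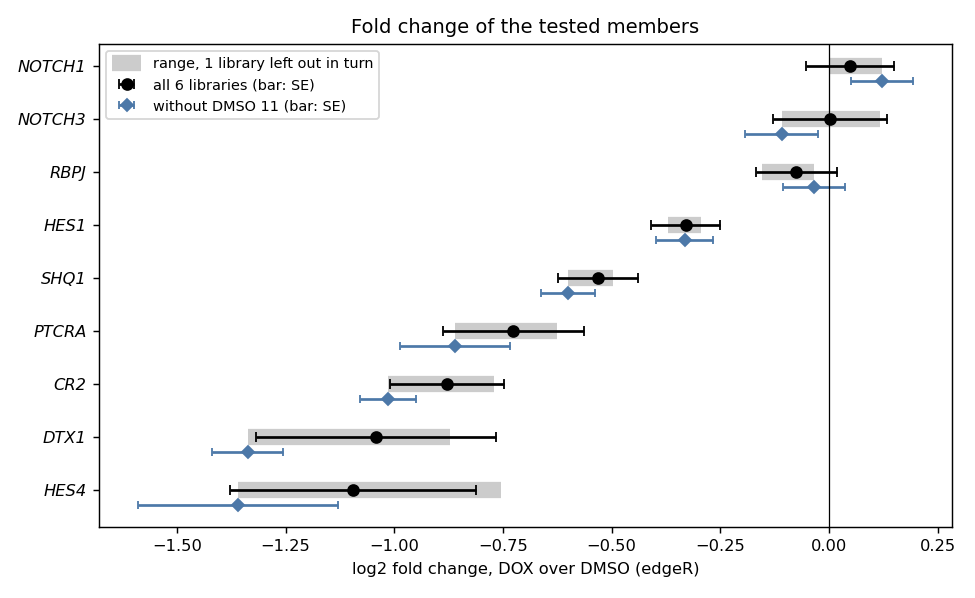
Log2 fold change, DOX over DMSO, of each tested gene with all 6 libraries (black, SE), without DMSO 11 (blue diamonds, SE) and its range with each library left out in turn (grey). The 6 targets stay below 0 in every case, from -0.29 for HES1 to -1.36 for HES4, while the ranges of NOTCH1 and NOTCH3 reach both sides of 0.

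The authors' deposited table is their own DESeq2 comparison of the same libraries, so it is not separate support. For these genes it gave the picture of DESeq2, and not that of the main edgeR test, by which 0 of the 9 passed. It lists 9.57% of 14237 genes with an adjusted p under 0.05, and 6.61% as lower. The same 6 targets are among them in the authors' deposited table, with log2 fold changes from -0.34 for HES1 to -1.10 for HES4 and adjusted p-values from 1.26e-06 for CR2 to 0.0172 for HES1. For NRARP the authors' deposited table gives -1.37 with a standard error of 1.27 and no adjusted p.

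DMSO 11 did not sit in the same place for all targets. On log2 CPM, its HES1 level exceeded the DOX mean by 0.33, and the mean of DMSO 23 and 35 exceeded it by 0.33 also. For SHQ1 these distances were 0.38 and 0.60, for CR2 0.56 and 1.01 and for PTCRA 0.41 and 0.85. For HES4 they were 0.37 and 1.35, and for DTX1 0.18 and 1.34. Thus DMSO 11 was with the other controls for HES1, part of the way for SHQ1, CR2 and PTCRA, and nearest the DOX libraries for HES4 and DTX1. With 1 library no test of these positions was possible, and what set DMSO 11 apart was not tested. HES4 and DTX1 were alike in this, with a root mean square distance of 0.18 between their centred log2 profiles over the 6 libraries, and PTCRA and CR2 were the closest pair of all, at 0.08. HES1 and HES4 were 0.54 apart.

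**Figure D3:**
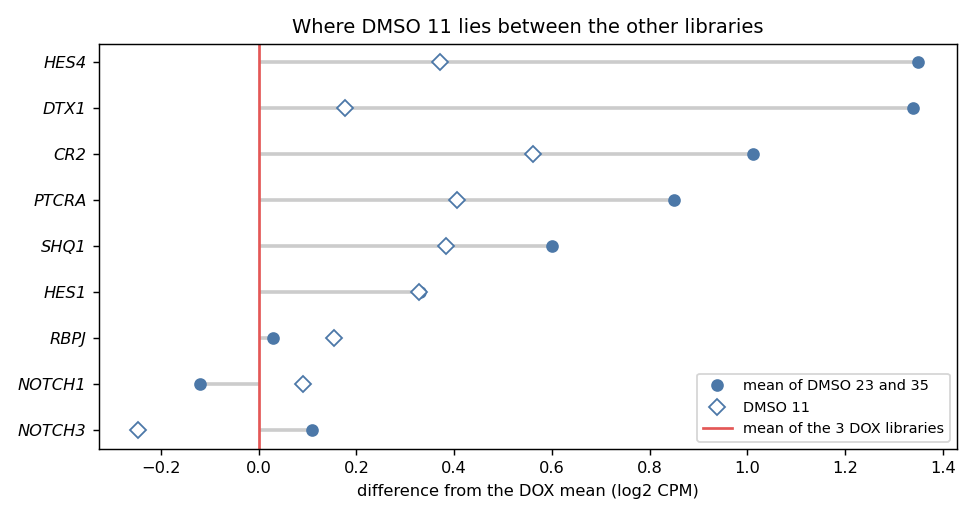
Distance from the mean of the 3 DOX libraries, in log2 CPM, of DMSO 11 (open diamonds) and of the mean of DMSO 23 and 35 (filled points). The diamond meets the point for HES1 at 0.33 and lies near the DOX line for DTX1 at 0.18, while for NOTCH1 and NOTCH3 they fall on opposite sides of it.

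Per length of exon, HES4 was the most abundant member and PTCRA the least of the 9 tested. In CPM per kilobase, the DMSO means were 346 ± 143 for HES4, 61.8 ± 3.24 for HES1, 54.1 ± 9.63 for CR2, 51.9 ± 4.38 for SHQ1 and 45.9 ± 4.02 for NOTCH1 (SD, n = 3). HES4 stood above all others in every library, but the library ranges of each neighbouring pair from HES1 down to NOTCH1 overlapped. NOTCH3 at 17.4 ± 2.75 and RBPJ at 16.9 ± 1.58 also overlapped, as did DTX1 at 11.1 ± 4.36 and PTCRA at 5.82 ± 1.02. In DOX the order was HES4 at 162 ± 30.8, HES1 at 49.1 ± 1.78, NOTCH1 at 47.5 ± 2.92, SHQ1 at 35.9 ± 0.556 and CR2 at 29.4 ± 0.835. NOTCH1 thus stood below CR2 and SHQ1 in the DMSO means and above them in DOX, where its range overlapped that of HES1. DMSO 11 by itself already had the DOX order, with NOTCH1 at 50.5, SHQ1 at 46.8 and CR2 at 43.4, so the other order rests on DMSO 23 and 35. Lengths are the union of all annotated exons, which understates the level of a gene with rarely used exons.

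**Figure D4:**
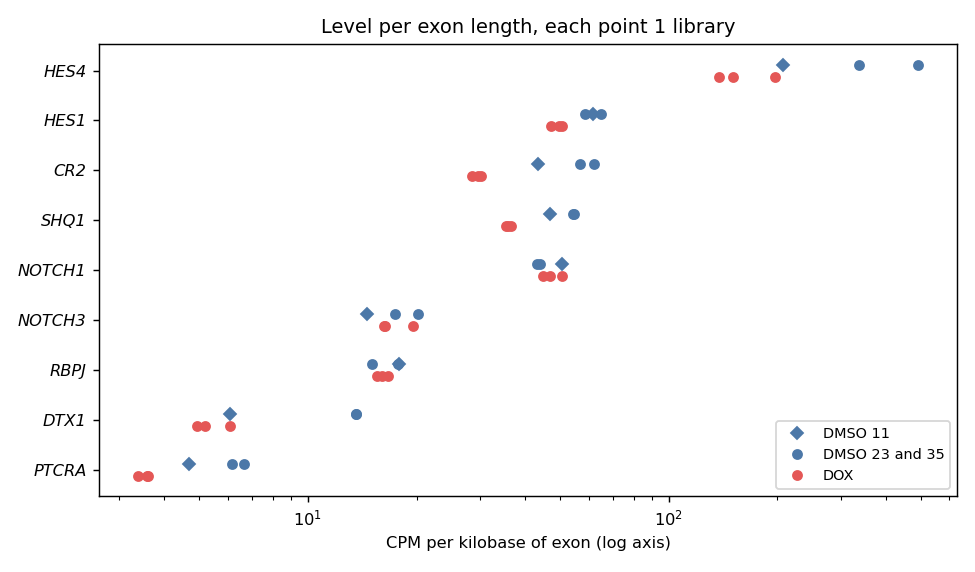
CPM per kilobase of exon on a log axis, each point 1 library (blue DMSO, with DMSO 11 as a diamond, red DOX). HES4 lies above 100 in all libraries, and NOTCH1 lies below CR2 and SHQ1 in DMSO 23 and 35 and above them in DMSO 11 and the DOX libraries.

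Genes with a like pattern were named by a rule, from the 9303 other genes that have a symbol and average 10 CPM or more. Nearest to the mean profile of the 9 members was POU2AF1, the lymphoid coactivator OBF-1, at a root mean square log2 distance of 0.03, with 11.5, 14.4 and 14.3 CPM in DMSO and 9.04, 8.97 and 10.4 CPM in DOX. The next were BCL2L13, MRPS31, WDYHV1 and GCC1, with distances from 0.03 to 0.04. The single nearest gene was PM20D2 for HES1, LINC00051 for HES4, RP11-305P22.9 for DTX1, ZNF844 for PTCRA, RGPD2 for CR2, RPUSD3 for SHQ1, C15orf39 for NOTCH1, KCND1 for NOTCH3 and the replication gene MCM6 for RBPJ. The distance was widest for HES4, at 0.15, so HES4 had the least close match of the 9. These likenesses rest on 6 libraries that all genes share.

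The rest of the pathway was read from 7 lists, of which 64 genes were tested. Their median log2 fold change was -0.03, edgeR called 0 of them, and DESeq2 called 4 as lower and 2 as higher, where 6.44% and 3.37% of all genes were so called. At an unadjusted p under 0.05 edgeR counted 12 of the 64 as lower and 6 as higher, beside 14.8% and 11.2% of all genes. Without DMSO 11 edgeR called 22 as lower and 13 as higher, where 25.7% and 23.7% of all genes were so called, and the median was -0.10. The same shares of all genes stand beside the counts of each single list below.

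Ligands were scarce. Among the other receptors and ligands 5 of 9 genes were tested, with 0 called by edgeR or DESeq2 and 0 at an unadjusted edgeR p under 0.05. Without DMSO 11 edgeR called 1 of them, NOTCH4, as lower (-0.87 ± 0.25, adjusted p = 0.00688). DLL3, DLL4, JAG2 and DLK1 did not pass the low count filter. NOTCH2, the most abundant of that list at 32.9 ± 1.10 CPM in DMSO, had a log2 fold change of 0.16 ± 0.09, and its reads can be shared with its NOTCH2NL copies. The proteases that cut the receptor were present, with 8 of 9 genes tested, 0 called by edgeR or DESeq2, and 1 counted as higher at an unadjusted edgeR p under 0.05. Without DMSO 11 edgeR called 2 proteases as higher and 2 as lower. APH1A, a gamma-secretase subunit, had 244 ± 11.4 CPM in DMSO against 241 ± 3.20 CPM in DOX.

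The Fringe genes, whose sugar transfer to the receptor sets which ligands it answers, differed in direction. MFNG had 111 ± 16.6 CPM in DMSO against 79.8 ± 2.60 CPM in DOX, at -0.47 ± 0.11 (adjusted p = 0.0915 by edgeR, 0.0128 by DESeq2). LFNG, at 1.95 ± 0.526 and 3.52 ± 0.376 CPM, was at 0.85 ± 0.23 (0.0984 by edgeR, 0.0258 by DESeq2). RFNG, the remaining Fringe gene, overlapped between groups at -0.40 ± 0.18 (0.201 by edgeR, 0.167 by DESeq2). EOGT, another glycosyltransferase of the receptor, was at 0.45 ± 0.14 (0.110 by edgeR, 0.0483 by DESeq2). MFNG, LFNG and EOGT were the DESeq2 calls in that list of 9. POFUT1, its most abundant gene and the enzyme that adds the first fucose, was at -0.19 ± 0.08. Without DMSO 11 edgeR called 3 genes of the list as higher and 3 as lower, with MFNG at -0.59, RFNG at -0.58, LFNG at 1.01, EOGT at 0.37 and POFUT1 at -0.16 among them.

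Nuclear partners were not called with all 6 libraries. By edgeR and by DESeq2, 0 of 7 tested coactivators and 0 of 10 tested corepressors passed, with medians of 0.04 and 0.05. At an unadjusted edgeR p under 0.05, 1 coactivator and 2 corepressors were counted as lower, beside 14.8% of all genes. Without DMSO 11 edgeR called 1 as higher and 3 as lower in each of these lists. The most abundant coactivator, ZMIZ1, a NOTCH1 cofactor, was at 0.09 ± 0.09. Among 12 genes of receptor turnover DESeq2 called 1, the cyclin CCNC, whose kinase complex marks the intracellular receptor for loss. CCNC had 52.1 ± 3.57 CPM in DMSO against 40.2 ± 2.42 CPM in DOX, at -0.37 ± 0.09 (adjusted p = 0.0922 by edgeR, 0.0184 by DESeq2). The ligases FBXW7 and ITCH were at 0.24 ± 0.11 and -0.09 ± 0.09 and were not called with all 6 libraries. Without DMSO 11 edgeR called 2 turnover genes as higher and 4 as lower, FBXW7 (0.35 ± 0.08, adjusted p = 0.000893), ITCH (-0.16 ± 0.06, adjusted p = 0.0382) and CCNC (-0.42 ± 0.07) among them.

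Of 13 further tested genes reported as NOTCH targets, DESeq2 called 2 as lower and 0 as higher, and their median was -0.21. MYC is one of the 13 and was also a target of the guides. LEF1, a transcription factor of early T cells, stood at 642, 886 and 925 CPM in DMSO, against 577, 573 and 603 CPM in DOX, at -0.48 ± 0.14 (adjusted p = 0.105 by edgeR, 0.0232 by DESeq2). LZTFL1 stood at 104, 184 and 211 CPM in DMSO, against 99.0, 106 and 94.3 CPM in DOX, at -0.74 ± 0.22 (0.110 by edgeR, 0.0206 by DESeq2), with DMSO 11 inside the DOX range. The most abundant of the list, TCF7, was at -0.14 ± 0.10 and the growth factor receptor IGF1R at -0.24 ± 0.09. In the opposite direction, CCND3, the cyclin that drives early T cell growth, stood at 601, 325 and 357 CPM in DMSO, against 576, 599 and 562 CPM in DOX, at 0.44 ± 0.21 and with DMSO 11 the highest library of all. Without DMSO 11 CCND3 was at 0.76 ± 0.07 and passed edgeR's test (adjusted p = 6.78e-08), as did LEF1 at -0.63, LZTFL1 at -0.99 and IGF1R at -0.30, and edgeR called 4 of the list as higher and 6 as lower. HES5, HEY1 and HEY2 held at most 31 counts over all libraries and IL2RA held 0, so these targets had too few counts to compare.

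**Figure D5:**
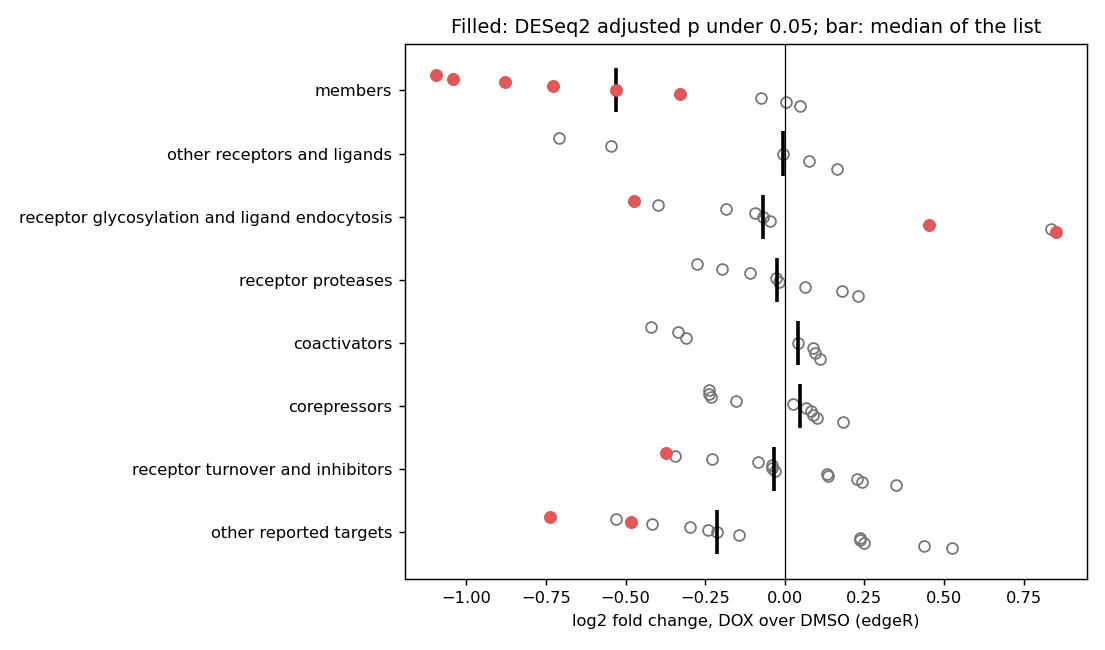
Log2 fold change, DOX over DMSO, of the tested members and of the tested genes of 7 NOTCH pathway lists; filled points have a DESeq2 adjusted p under 0.05 and black bars are medians. The members reach from -1.10 to 0.05 with a median of -0.53, and the list medians lie between -0.21 and 0.05.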

How the data were processed

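The authors deposited raw read counts per Ensembl gene for 6 libraries and a table of their own comparison, which per the file headers gives p-values and adjusted p-values, a score (the test statistic), log2 fold changes, their errors, and the mean normalised signal. The submitters' processing notes name STAR 2.5.2a, featureCounts, DESeq2 1.12.4 and hg19, with no roles. The libraries are strand-specific per the labels' protocols, but the strand setting of the counting is not given in the sources used here. In GENCODE 29 (GRCh38, matched by Ensembl ID; used for exon lengths) no member's exons overlap another gene. As guide targets the series text gives both MYC genes, the treatment text MYC alone and the genotype label MYCN alone; both were taken as targets. Count columns name the group and carry numbers that are in no label; 0 columns of per-library values were left unused.

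The 92 spike-in rows, all 0, were left out. Genes were filtered with filterByExpr, scaled with TMM and tested with edgeR 4.0.16 (R 4.3.3; robust quasi-likelihood F test, group as the only term, Benjamini-Hochberg over 15949 genes, threshold 0.05), after checks on simulated data. The SE is the log2 fold change divided by the square root of F, and 95% intervals use the fit's degrees of freedom. A prior count of 2 entered log2 CPM. DESeq2 1.42.0 (after the same filter), limma 3.58.1 (voom), other scalings and filters, and each library left out in turn were alternatives. Permutation tests were exact, over all 20 assignments of libraries to groups. All pairs of libraries differed beyond sampling noise (mean chi-square per gene at least 4.17).

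The members and lists were chosen with earlier results of these data known. Named were all members; of the pathway lists each gene called by edgeR or DESeq2, otherwise the most abundant (for the corepressors not reported here; beyond the rule, it is also given for lists with calls); the targeted genes; and the genes of like pattern (5 for the mean profile, 1 per member). FBXW7, IGF1R, CCND3, HES6, HEYL, NOTCH4, RFNG, LMO1, CD2 and the genes named as not tested were chosen after their values were seen. Of the 76 list genes, KYAT3 had no row under that symbol. Promoters are from RefSeq (GRCh38.p14), matched by symbol for 9 of the 10 members. Figures were drawn with matplotlib 3.10.9.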

Additional observations from a re-analysis of the deposited data

How the results depend on the processing

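The 6 lower targets (HES1, HES4, DTX1, PTCRA, CR2 and SHQ1) had negative log2 fold changes in all 14 alternatives tried, and the median over the members stayed between -0.60 and -0.50. What moved was the call. DESeq2 called 1383 genes over all 6 libraries (9.81% of 14093), among them 6 members and 6 other pathway genes. EdgeR without a low count filter called 1761 of 31682 genes, with 4 members (HES1, PTCRA, CR2 and SHQ1) and 6 pathway genes. A threshold of 0.01 left 1 gene. MYCN passed in the same fits, at -0.86 by DESeq2 and -0.88 without the filter. With 1 library left out in turn, edgeR called 0 to 8109 genes, 0 to 6 members and 0 to 35 pathway genes. The upper ends were all without DMSO 11, where 49.4% of all genes were called. Leaving out any of the other 5 libraries gave 0 calls. At an unadjusted p under 0.05 those 5 fits counted 2273 to 2629 of 16289 to 16346 genes, 6 members among them each time, all lower. With each library left out in turn, MYCN ran from -0.98 to -0.72, MYC from -0.42 to -0.20 and the pathway median from -0.10 to 0.0050. NOTCH1 ran from -0.0003 (without DOX 36, a change of sign) to 0.12, and NOTCH3 from -0.11 to 0.12, which changed sign without the filter (-0.0091), without DMSO 11 (-0.11), without DMSO 35 (-0.0008) and without DOX 36 (-0.09). HES4 ran from -1.36 to -0.75 and DTX1 from -1.34 to -0.87 with 1 library left out. The cause of these changes was not tested. No paired analysis was possible because the count columns carry none of the labels' replicate numbers. Low counts limit NRARP, with 18 in all.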

Other observations

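RBPJL, the tissue-restricted relative of RBPJ that was on no list and was chosen after its values were seen, held 25, 176 and 121 counts in DMSO 11, 23 and 35 and 29, 29 and 36 counts in DOX 12, 24 and 36. DMSO 11 was the lowest library, so the groups overlapped, and RBPJ itself showed no such pattern. In the stromal and epithelial marker list, COL1A1 stood at 7.11, 2.44 and 2.77 CPM in DMSO and at 9.35, 9.18 and 9.70 CPM in DOX, while its partner chain COL1A2 held 1 count in all, and the part of this in the NOTCH target results was not tested.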
